A study of Mus musculus with 10 samples.

Results

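Annexins and S100 proteins are calcium-binding proteins that work at membranes. The mRNA levels of 9 of their genes, Anxa1 to Anxa6, S100a6, S100a10 and S100a11, were followed in mouse embryonic stem cells (ESCs) depleted of Wapal or of Smc3. The genes were chosen from this series with values of the same arrays already known, and which comparison served for the choice is not recorded. Every difference given for them below is therefore a description of these arrays and not a test. The members were taken as all probe sets whose only gene symbol in the platform annotation is 1 of the 9 names. This gave 18 probe sets for 8 of the 9 genes, out of 18193 genes with such a probe set on the array. The probe set that lists S100a11 also carries other gene symbols, so S100a11 has no value of its own here.

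Wapal (gene symbol Wapl) releases cohesin from chromatin, and Smc3 is a core subunit of the cohesin ring. ESCs of line CJ9, which came from 129svj mice, had been infected with lentivirus that carried an shRNA or, as negative control, the Empty Vector without one, with polybrene at 10 mcg/mL over 48 h. They were then kept in medium with LIF and puromycin at 4 mcg/mL, with 48 h of culture after infection. The groups were Wapal shRNA1 and shRNA2, Smc3 shRNA1 and shRNA2, and Empty Vector, each with 2 arrays labelled as biological replicates, 10 arrays in all. All groups, the control included, thus shared infection, polybrene and puromycin, and all came from 1 cell line.

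An annexin has a core that binds acidic phospholipids on the inner face of a membrane when calcium rises, and a variable N-terminal tail. S100 proteins are small EF-hand dimers, and several of them dock on an annexin tail and join annexins on adjacent membranes. The best known pairs are annexin A2 with S100A10 and annexin A1 with S100A11. Through them the families take part in membrane repair, exocytosis, endocytosis and the anchoring of actin below the membrane. The annexin A2 complex on the cell surface also binds plasminogen and tissue plasminogen activator. Several annexins and S100 proteins are abundant in epithelial cells.

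The promoters of Anxa2 and Anxa1, the members called higher in both depletions, and of S100a6, the member that lay lower in both, are shown as the 250 bases before the annotated start (RefSeq, GRCm38.p6). Capitals in them mark matches to 3 short motifs. The Anxa2 stretch is chr9:69453433-69453682 on the plus strand, the Anxa1 stretch chr19:20390672-20390921 on the minus strand and the S100a6 stretch chr3:90612644-90612893 on the plus strand.
Anxa2: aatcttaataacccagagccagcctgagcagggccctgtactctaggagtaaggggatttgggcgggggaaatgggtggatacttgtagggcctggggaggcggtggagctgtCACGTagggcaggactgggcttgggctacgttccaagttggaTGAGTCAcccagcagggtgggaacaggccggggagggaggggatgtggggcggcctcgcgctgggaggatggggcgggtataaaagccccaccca
Anxa1: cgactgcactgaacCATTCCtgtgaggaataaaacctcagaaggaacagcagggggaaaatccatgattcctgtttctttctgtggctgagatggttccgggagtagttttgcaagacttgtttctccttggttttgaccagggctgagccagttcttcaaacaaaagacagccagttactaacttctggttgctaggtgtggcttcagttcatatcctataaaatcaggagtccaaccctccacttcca
S100a6: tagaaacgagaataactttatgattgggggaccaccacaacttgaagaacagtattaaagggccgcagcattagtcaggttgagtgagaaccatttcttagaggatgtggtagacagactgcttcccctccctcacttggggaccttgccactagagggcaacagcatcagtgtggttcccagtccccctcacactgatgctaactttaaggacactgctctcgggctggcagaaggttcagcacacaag
The motifs were TGANTCA (bound by AP-1 factors), GGAATG (bound by TEAD factors) and ACGTG (the core of the hypoxia response element), searched on both strands from 250 bases before to 50 bases after the start. The Anxa2 promoter held TGAGTCA at 95 bases before the start and CACGT, the reverse complement of ACGTG, at 137 bases before it, and ACGTG also lay 42 bases past the start, outside the stretch printed. The Anxa1 promoter held CATTCC, the reverse complement of GGAATG, at 236 bases before the start. The S100a6 stretch printed above held none of the 3, and its matches to ACGTG began 14 and 15 bases past the start. TGANTCA was found in 7.81% of 32851 mouse promoter windows of this length, GGAATG in 14.7% and ACGTG in 19.6%. Of 7 windows of 6 members (Anxa4 had 2), TGANTCA was found in 2 (Anxa2 and S100a11), GGAATG in 1 and ACGTG in 4 (Anxa2, Anxa5, S100a6 and S100a11). S100a11 held TGAGTCA at 136 and at 38 bases before its start. A match describes letters in the reference and says nothing of binding in these cells.

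Values are RMA intensities per probe set on a linear scale, and a gene with several probe sets is represented by the brightest. Differences are on the log2 scale with the standard error (SE) of a limma fit over all 45037 probe sets, and a gene is called where its adjusted p was under 0.05. That fit held 1 mean per group. The SE and p of a depletion difference thus cover the spread between arrays of a group and leave out that between shRNAs. The median intensity of the arrays was 38.6 to 39.7, and 59.6 to 60.1% of probe sets lay below a log2 intensity of 6, taken here as dim. The targeted genes were low in their own groups: the log2 difference from Empty Vector was -2.46 ± 0.10 for Wapl in Wapal-depleted cells and -3.00 ± 0.10 for Smc3 in Smc3-depleted cells. Wapl was reduced less by shRNA1 (log2 difference -1.41) than by shRNA2 (-3.51). Smc3 was reduced to a like degree by both of its shRNAs (-3.09 with shRNA1 and -2.91 with shRNA2). All 8 ESC markers were above the dim limit by their mean log2 over all arrays. Of them, 2 fell in Wapal depletion (Esrrb and Klf4) and 4 in Smc3 depletion (Nanog, Zfp42, Esrrb and Klf4), and none was called higher. Of the fibroblast markers 7 of 8 were dim by the same mean, with Dcn called higher and Thy1 lower in both depletions. Of the primitive endoderm markers 6 of 8 were dim, and Lama1 and Col4a1 fell in Wapal depletion. The part of these markers in the levels of the members was not tested. The labels name no batch, but Empty Vector replicate 2 differed from replicate 1 in part in the way the shRNAs differed from each other. Across the 45037 probe sets, that difference correlated with Wapal shRNA2 minus shRNA1 (r = 0.40) and with Smc3 shRNA1 minus shRNA2 (r = 0.31). The latter 2 correlated with each other at r = 0.33. The order of each subtraction was set with the split already known from earlier work on these arrays. Probe sets are not independent replicates, and these differences share no array. In this split Empty Vector replicate 1, Wapal shRNA1 and Smc3 shRNA2 stand on one side, and the other 5 arrays on the other. The shRNAs against 1 gene lie on opposite sides, so shRNA and side cannot be told apart there, and differences from the Empty Vector array of the same side are given as well. A fit with side as a covariate used 1 mean per depletion instead of 1 per shRNA. Each depletion and Empty Vector held as many arrays of one side as of the other, so this fit left each difference unchanged. Only the SE and adjusted p moved, so a call lost there does not tell how much of a difference came with side.

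Anxa2, which binds S100A10 and links membranes to actin and to plasminogen, differed most of all members. Its intensity was 856 and 889 with Wapal shRNA1, 2181 and 2496 with Wapal shRNA2, 3199.6 and 2461 with Smc3 shRNA1, 682 and 886 with Smc3 shRNA2, against 273 and 535 in Empty Vector. All 8 shRNA arrays lay above both control arrays. Smc3 shRNA1 and Wapal shRNA2 had the highest levels and overlapped each other, Wapal shRNA1 and Smc3 shRNA2 overlapped at a lower level, and these 2 pairs of groups did not overlap. The log2 difference was 1.90 ± 0.23 (3.73-fold) in Wapal depletion and 1.95 ± 0.25 (3.87-fold) in Smc3 depletion, each over 4 arrays against the same 2 Empty Vector arrays. By shRNA it was 1.19 ± 0.26 (2.28-fold) with Wapal shRNA1, 2.61 ± 0.26 (6.11-fold) with Wapal shRNA2, 2.88 ± 0.29 (7.35-fold) with Smc3 shRNA1 and 1.02 ± 0.29 (2.03-fold) with Smc3 shRNA2. The Empty Vector arrays themselves differed by 0.97, close to the value for Smc3 shRNA2, which alone of the 4 was not called. Against the Empty Vector array of their own side, Wapal shRNA1 lay 1.68 higher, Wapal shRNA2 2.13, Smc3 shRNA1 2.39 and Smc3 shRNA2 1.51 (log2), so all 4 stayed above it. Without Empty Vector replicate 1, the difference was 1.42 in Wapal depletion and 1.47 in Smc3 depletion. The SEs of the depletion differences leave out the spread between shRNAs. The methods' t-test includes it, and by that test both calls were lost, also at an unadjusted p under 0.05.

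The second Anxa2 probe set was dim and moved less. It read 41.6 and 41.8 with Wapal shRNA1, 66.1 and 64.3 with Wapal shRNA2, 48.7 and 52.5 with Smc3 shRNA1, 38.0 and 39.6 with Smc3 shRNA2, against 38.8 and 36.8 in Empty Vector. Here Wapal shRNA2 stood highest, above Smc3 shRNA1, and Smc3 shRNA2 overlapped the control. A further Anxa2 probe set stayed between 5.67 and 6.87 on all arrays, the lowest intensities of any member probe set.

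The trophectoderm is the epithelium around the early embryo, and the summed level of its markers followed Anxa2 only in part. Of its 8 markers, the defining transcription factors Cdx2, Elf5, Gata3 and Hand1 were dim by their mean log2 over all arrays. The summed intensity of the 8 was 449 to 452 with Wapal shRNA1, 801 to 816 with Wapal shRNA2, 874 to 1087 with Smc3 shRNA1 and 426 to 433 with Smc3 shRNA2, against 477 to 527 in Empty Vector. The groups with the highest Anxa2 thus had the highest sum, while Wapal shRNA1 and Smc3 shRNA2 had more Anxa2 than Empty Vector at a lower sum. Of this list Krt8 and Krt19 were called higher in Wapal depletion and Krt19 in Smc3 depletion, and none was called lower. Their part in the Anxa2 level was not tested. In bulk RNA, more cells of a type and more RNA per cell cannot be told apart.

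**Figure D1:**
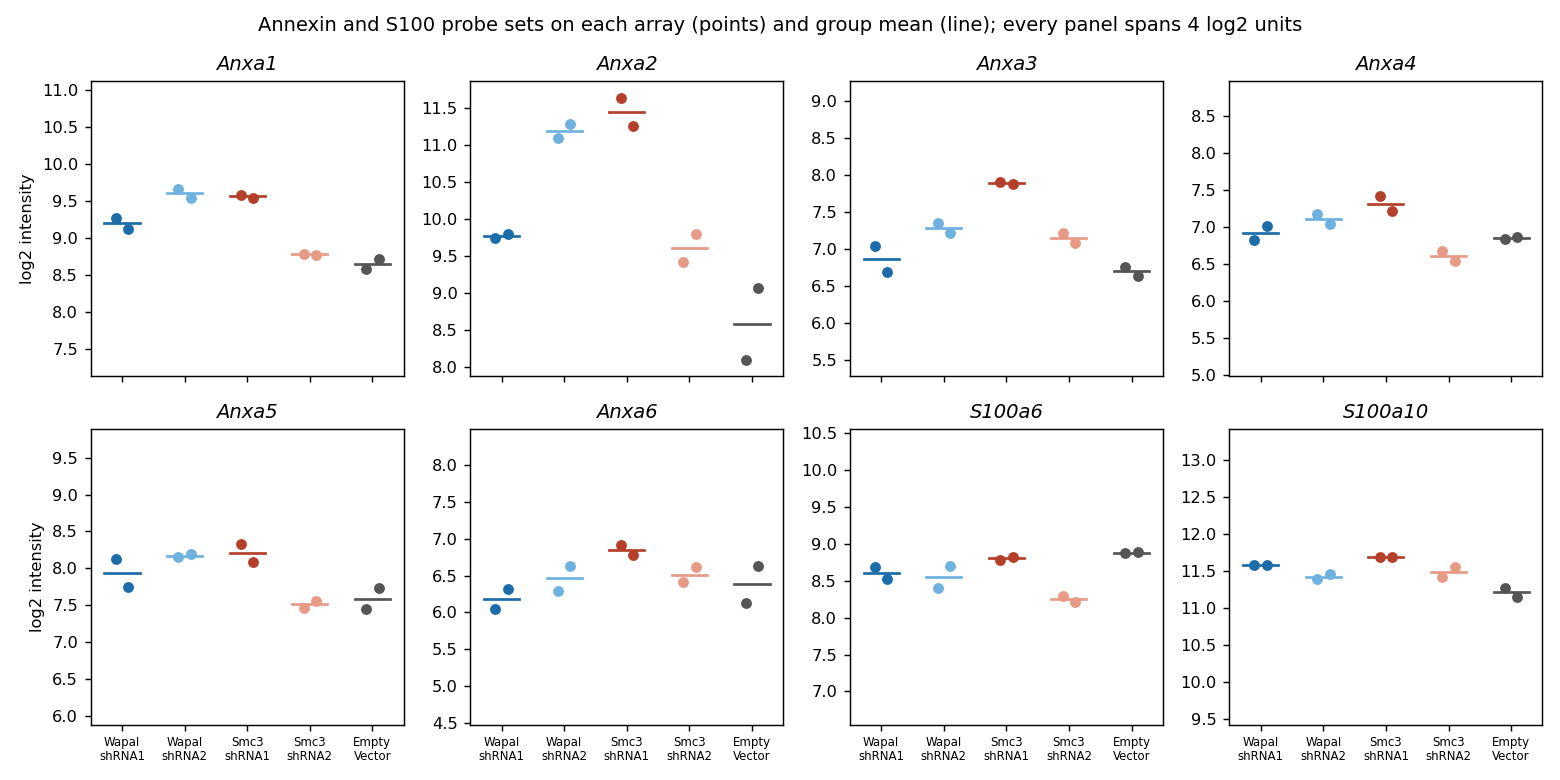
Log2 intensity of the brightest probe set of 8 annexin and S100 genes (vertical axes, each spanning 4 log2 units) in both Wapal groups, both Smc3 groups and Empty Vector, with a point per array and a line at the mean of 2 arrays. Anxa2 spreads most, with all 8 shRNA arrays above the 2 Empty Vector arrays, and S100a6 is the member with all 8 below them.

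Anxa1, an inhibitor of cytosolic phospholipase A2 that also acts outside the cell through formyl peptide receptors, followed a like order at a smaller scale. It read 616 and 557 with Wapal shRNA1, 811 and 744 with Wapal shRNA2, 769 and 747 with Smc3 shRNA1, 441 and 437 with Smc3 shRNA2, against 384 and 421 in Empty Vector. All 8 shRNA arrays lay above the control arrays, although Smc3 shRNA2 did so by little, and Wapal shRNA2 and Smc3 shRNA1 overlapped at the top. It differed from Empty Vector by a log2 value of 0.75 ± 0.10 (1.68-fold) in Wapal depletion and 0.52 ± 0.09 (1.44-fold) in Smc3 depletion. By shRNA it was 0.54 ± 0.12 with Wapal shRNA1, 0.95 ± 0.12 with Wapal shRNA2, 0.91 ± 0.10 with Smc3 shRNA1 and 0.13 ± 0.10 with Smc3 shRNA2, of which the last was not called. Within the sides the differences were 0.61 for Wapal shRNA1, 0.88 for Wapal shRNA2, 0.85 for Smc3 shRNA1 and 0.19 for Smc3 shRNA2. The call in both depletions was lost without Empty Vector replicate 1 (0.68 in Wapal depletion and 0.45 in Smc3 depletion), and the one in Smc3 depletion also with side as a covariate.

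Anxa3, an annexin known from neutrophil granules, differed most with Smc3 shRNA1. Its intensity was 132 and 103 with Wapal shRNA1, 163 and 149 with Wapal shRNA2, 240 and 235 with Smc3 shRNA1, 149 and 136 with Smc3 shRNA2, against 108 and 99.8 in Empty Vector. Smc3 shRNA1 stood apart from every other group, Wapal shRNA2 and Smc3 shRNA2 overlapped, and Wapal shRNA1 overlapped the control. On the log2 scale the difference was 0.83 ± 0.09 (1.77-fold) in Smc3 depletion and 0.38 ± 0.12 (1.30-fold) in Wapal depletion, and only that in Smc3 depletion was called. Wapal-depleted cells had less Anxa3 than Smc3-depleted cells, with a log2 difference of -0.45 ± 0.09. By brightest probe sets this was the 1 member called between the depletions, where 22.5% of all genes were called, and the arrays of the 2 depletions overlapped. Dim probe sets of other members were called there too. They were 1 of Anxa6 (-0.38 ± 0.08), 1 of Anxa1 (0.31 ± 0.09) and 1 of Anxa2 (0.24 ± 0.07), with overlap of the arrays for Anxa2 alone. The Anxa3 call was lost with side as a covariate, which changed the SE and not the difference.

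Anxa5, the annexin that binds phosphatidylserine on dying cells, read 279 and 215 with Wapal shRNA1, 284 and 292 with Wapal shRNA2, 320 and 272 with Smc3 shRNA1, 176 and 189 with Smc3 shRNA2, against 174 and 213 in Empty Vector. Smc3 shRNA2 lay within the range of the control, whereas the other shRNA arrays were above it, Wapal shRNA1 replicate 2 only just. The log2 difference was 0.46 ± 0.13 (1.38-fold) in Wapal depletion and 0.27 ± 0.12 (1.21-fold) in Smc3 depletion, and neither was called. Anxa5 was called with Smc3 shRNA1 alone (0.62 ± 0.14, 1.53-fold).

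Anxa4, an annexin of epithelial membranes, read 114 and 129 with Wapal shRNA1, 145 and 132 with Wapal shRNA2, 171 and 149 with Smc3 shRNA1, 102 and 93.2 with Smc3 shRNA2, against 114 and 117 in Empty Vector. Smc3 shRNA1 thus lay above the control and Smc3 shRNA2 below it. With shRNA1 the log2 difference was 0.46 ± 0.11 (1.38-fold), which was called, and with shRNA2 it was -0.25 ± 0.11. Together they gave 0.11 ± 0.10 in Smc3 depletion, and Wapal depletion gave 0.16 ± 0.10. On the second Anxa4 probe set the control and Smc3 shRNA2 were lowest, and intensities were 101 and 116 with Wapal shRNA1, 111 and 115 with Wapal shRNA2, 149 and 130 with Smc3 shRNA1, 88.3 and 79.3 with Smc3 shRNA2, against 77.4 and 88.2 in Empty Vector. There, Smc3 shRNA2 overlapped the control and the other 6 arrays were above it.

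Anxa6, the largest annexin, with a duplicated core, was near the dim limit. It read 66.2 and 79.9 with Wapal shRNA1, 78.7 and 98.6 with Wapal shRNA2, 121 and 110 with Smc3 shRNA1, 84.9 and 97.7 with Smc3 shRNA2, against 70.2 and 98.9 in Empty Vector. Only Smc3 shRNA1 lay above both control arrays, and the control arrays differed by 0.49 (log2). The differences, -0.06 ± 0.16 in Wapal depletion and 0.30 ± 0.14 in Smc3 depletion, were not called. The 3 other Anxa6 probe sets were dim on average. The brightest of these 3 read 71.0 and 77.3 with Smc3 shRNA1, against 53.7 and 56.7 in Empty Vector, and it too was highest in that group. The next went the other way, with all shRNA arrays below both control arrays. It read 34.8 and 47.6 with Smc3 shRNA1, against 52.5 and 49.5 in Empty Vector. Its log2 difference was -0.36 in each depletion, and neither was called. The dimmest read 41.9 and 42.6 with Smc3 shRNA1, its highest group, against 37.8 and 30.3 in Empty Vector.

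The S100 members moved apart from each other. S100a10, the partner that fixes annexin A2 at the membrane and unlike other S100 proteins does not need calcium to do so, read 3073 and 3059.9 with Wapal shRNA1, 2689 and 2810.2 with Wapal shRNA2, 3294 and 3311 with Smc3 shRNA1, 2726 and 3013 with Smc3 shRNA2, against 2475 and 2262 in Empty Vector. All 8 shRNA arrays were above the control arrays. The difference was small, at 0.30 ± 0.09 (1.23-fold) in Wapal depletion, which was not called, and 0.38 ± 0.09 (1.30-fold) in Smc3 depletion, which was. That call was lost when any 1 of the 6 arrays was left out. It was also lost with side as a covariate, which changed the SE and not the difference. Its second probe set gave 2365 and 2131 with Wapal shRNA1, 1972 and 2106 with Wapal shRNA2, 2624 and 2595 with Smc3 shRNA1, 1853 and 2195 with Smc3 shRNA2, against 2001 and 1913 in Empty Vector, so there Smc3 shRNA2 spanned the control and Wapal shRNA2 overlapped it. The differences there, 0.13 in Wapal and 0.23 in Smc3 depletion, were not called. A further S100a10 probe set was dim and gave -0.13 in Wapal and 0.13 in Smc3 depletion, neither called. On it Wapal shRNA2, at 46.4 and 48.1, lay below both control arrays (65.6 and 51.2), and Smc3 shRNA1, at 69.8 and 70.6, lay above them.

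S100a6 (calcyclin), which binds annexin A2, Cacybp and Sugt1, was the member that lay lower in both depletions. It read 410 and 367 with Wapal shRNA1, 339 and 415 with Wapal shRNA2, 442 and 451 with Smc3 shRNA1, 312 and 298 with Smc3 shRNA2, against 469 and 473 in Empty Vector. All 8 shRNA arrays were below both control arrays, which differed by 0.01 on the log2 scale. Smc3 shRNA2 was lowest and apart from all other groups, and the Wapal shRNAs overlapped each other. The log2 difference was -0.30 ± 0.11 in Wapal depletion and -0.35 ± 0.09 in Smc3 depletion, of which the second was called. This call was lost without any 1 of the 6 arrays, after quantile normalization, and with side as a covariate. The fit with side changed the SE and not the difference of -0.35. By shRNA, the difference was -0.63 ± 0.10 with Smc3 shRNA2 and -0.08 ± 0.10 with Smc3 shRNA1. S100a6 was thus nearest to the control in the group where Anxa2 was highest. S100a6, S100a10 and S100a11 all lie on chromosome 3, where no protein-coding gene stands between S100a10 and S100a11 and 59 stand between S100a11 and S100a6 (RefSeq, GRCm38.p6).

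**Figure D2:**
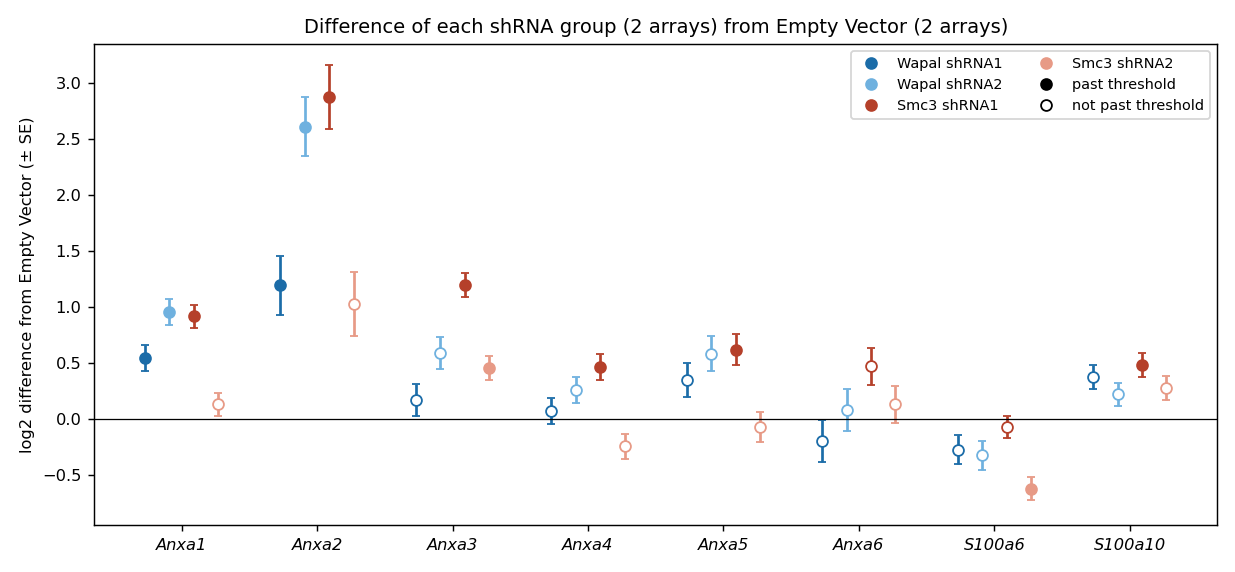
Log2 difference from Empty Vector (vertical axis, with SE) of 8 annexin and S100 genes for each of the 4 shRNA groups, 2 arrays against 2; filled points passed the threshold over all probe sets. Anxa2 reaches 2.88 with Smc3 shRNA1 and 2.61 with Wapal shRNA2, and Smc3 shRNA2 has the lowest point of the 4 for Anxa1, Anxa2, Anxa4, Anxa5 and S100a6.

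Counted over the 8 measured members, 2 rose and 0 fell in Wapal depletion (Anxa1 and Anxa2), where 7.56% of all 18193 genes were called. In Smc3 depletion 4 rose (Anxa1, Anxa2, Anxa3 and S100a10) and 1 fell (S100a6), where 10.0% of all genes were called. The median difference of the members was 0.34 in each depletion, and that of all genes was 0.01 in each. All 8 members had a mean log2 of at least 6, and of the 9689 such genes 1070 were called in Wapal depletion and 1375 in Smc3 depletion. Since the members were chosen with these values known, nothing is read from these counts. The same 2 Empty Vector arrays stand in all of these comparisons.

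The shRNAs against Smc3 gave different levels for 6 of 8 members and those against Wapal for 1. With Wapal shRNA1, 2 members were called against Empty Vector (background 6.03%), and with Wapal shRNA2 also 2 (4.81%), Anxa1 and Anxa2 in each case. With Smc3 shRNA1, 6 members were called, all higher (11.6%), and with Smc3 shRNA2, 1 was called higher, Anxa3, and 1 lower, S100a6 (9.52%). Wapal shRNA1 differed from Wapal shRNA2 in 1 member, Anxa2 (-1.42 ± 0.26), where 1.46% of all genes were called. That call was lost without any 1 of the 4 Wapal arrays. Wapal shRNA1 was below shRNA2 in 6 of 8 members. Smc3 shRNA1 was above Smc3 shRNA2 in all 8 members and called in 6, where 12.5% of all genes were called: Anxa2 (1.85 ± 0.29), Anxa1 (0.79 ± 0.10), Anxa3 (0.74 ± 0.11), Anxa4 (0.71 ± 0.11), Anxa5 (0.69 ± 0.14) and S100a6 (0.55 ± 0.10). Without Smc3 shRNA1 replicate 1, only 1 of the 6, Anxa1, was called. Empty Vector replicate 2 was above replicate 1 by 0.13 for Anxa1, 0.97 for Anxa2, 0.03 for Anxa4, 0.29 for Anxa5 and 0.49 for Anxa6, and had a difference of -0.11 for Anxa3.

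Over the 10 arrays, Anxa1, Anxa3, Anxa4 and Anxa5 followed Anxa2 more closely than either S100 gene did, which is given as a description because the arrays fall into 5 groups. Pearson's r with Anxa2 was 0.929 for Anxa1, 0.856 for Anxa5, 0.812 for Anxa3, 0.731 for Anxa4, 0.634 for S100a10, 0.605 for Anxa6 and -0.02 for S100a6. Among 9688 genes with a mean log2 of at least 6, Anxa1 ranked 59 by likeness to Anxa2, Anxa5 206, Anxa3 321 and S100a10 1076. Anxa1 and Anxa5 correlated at 0.934. The Anxa2 partner gene S100a10 was thus among the members less like it.

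The genes outside the family most like Anxa2 were Upp1, a uridine phosphorylase (r = 0.997), A2m, the protease inhibitor alpha-2-macroglobulin (0.980), Ppp1r3b, a glycogen-targeting subunit of protein phosphatase (0.979), the tetraspanin Tspan5 (0.978) and Decr1, an enzyme of fatty acid oxidation (0.975). Upp1 read 5899.8 and 6127 with Wapal shRNA1, 8294 and 8730.1 with Wapal shRNA2, 8913 and 8607 with Smc3 shRNA1, 5485 and 6024 with Smc3 shRNA2, against 3957 and 4966 in Empty Vector. It shared with Anxa2 both the order of the groups and a higher level in Empty Vector replicate 2 than in replicate 1. The most opposite were Qtrt2 (-0.983) and Tyw3 (-0.980), both of tRNA modification, the membrane peptidase Mme (-0.971), the ubiquitin and SUMO ligase Topors (-0.971) and the zinc finger gene Zbtb22 (-0.965). Tyw3 read 132 and 131 with Wapal shRNA1, 102 and 97.7 with Wapal shRNA2, 92.4 and 91.4 with Smc3 shRNA1, 167 and 155 with Smc3 shRNA2, against 220.2 and 164 in Empty Vector. These 10 genes were picked for their correlation, which was therefore not tested.

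**Figure D3:**
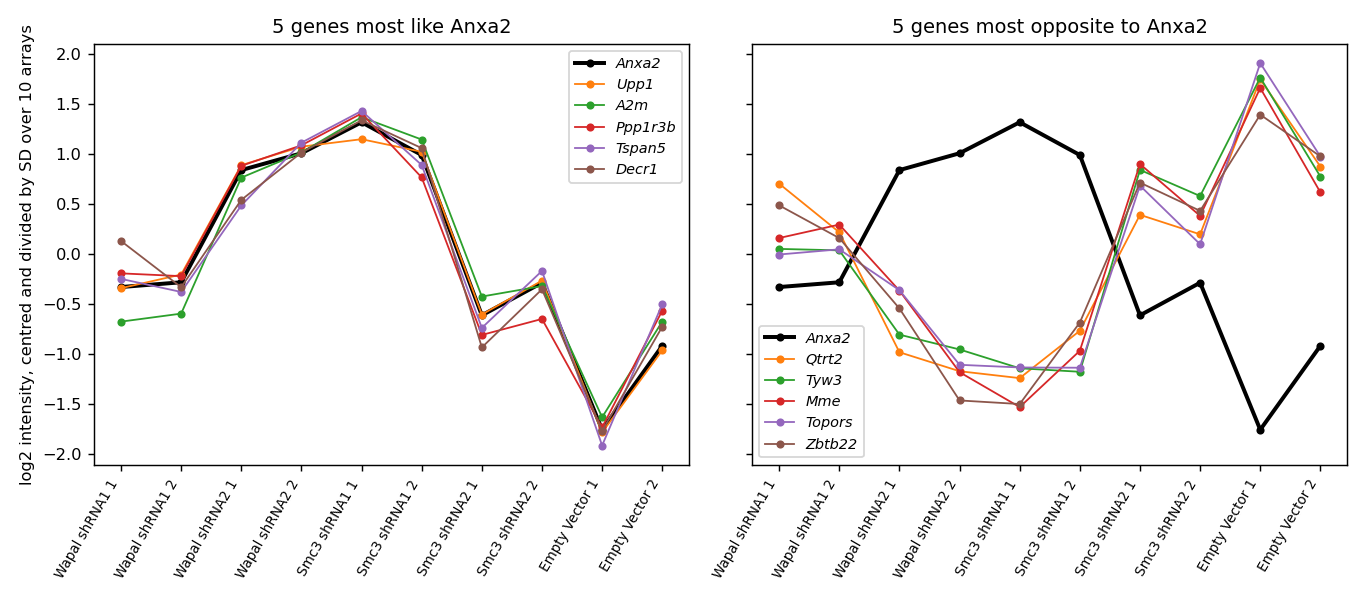
Log2 intensity over the 10 arrays, centred and divided by the SD of each gene (vertical axis), for Anxa2 with the 5 genes most like it (left) and the 5 most opposite to it (right). Wapal shRNA2 and Smc3 shRNA1 are at one end of all lines and Empty Vector replicate 1 at the other, with Empty Vector replicate 2 between it and most of the shRNA arrays.

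The other annexins and S100 genes and the known partners of both families, 44 genes of which 39 were measured, were mostly not called. Of 5 other annexins (Anxa7, Anxa8, Anxa9, Anxa10 and Anxa13) limma called 0 in Wapal depletion and 0 in Smc3 depletion, with 1 and 1 at an unadjusted p under 0.05. Of 12 other S100 genes it called 0 in Wapal depletion and 1 in Smc3 depletion, with 5 and 3 at an unadjusted p under 0.05. The share of all genes at an unadjusted p was not counted, so nothing is read from these unadjusted counts. Of 22 partners, 1 rose and 1 fell in Wapal depletion, and 4 rose in Smc3 depletion. Of the 39 genes, 2 were called in Wapal depletion and 5 in Smc3 depletion, against the background of 7.56% and 10.0% given above, and 13 of the 39 were above the dim limit. Their median difference was 0.17 in Wapal depletion and 0.05 in Smc3 depletion.

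Pla2g4a, the cytosolic phospholipase A2 that annexin A1 inhibits, rose in both depletions on a dim probe set. It read 48.7 and 44.0 with Wapal shRNA1, 56.0 and 52.1 with Wapal shRNA2, 93.5 and 105 with Smc3 shRNA1, 50.6 and 55.8 with Smc3 shRNA2, against 29.4 and 26.2 in Empty Vector. All 8 shRNA arrays were above the control arrays. The log2 difference was 0.85 ± 0.10 (1.80-fold, limma adjusted p = 0.0068) in Wapal depletion and 1.38 ± 0.10 (2.61-fold, limma adjusted p = 0.000324) in Smc3 depletion, and it was called without any 1 array in both. Wapal depletion was below Smc3 depletion (-0.54 ± 0.08, limma adjusted p = 0.00137), although their arrays overlapped.

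Of 4 genes of the plasminogen system, which the annexin A2 complex serves at the cell surface, 2 rose in Smc3 depletion, Plaur and Plat. In that depletion 10.0% of all genes were called. Plaur, the urokinase receptor, read 262 and 265 with Smc3 shRNA1, 260 and 259 with Smc3 shRNA2, against 133 and 109 in Empty Vector, so both shRNAs gave nearly the same level (1.11 ± 0.11, 2.17-fold, limma adjusted p = 0.000974). With Wapal shRNA1 it was 141 and 174 and with Wapal shRNA2 139 and 133, which overlapped the control, and the difference of 0.28 was not called. Plaur was lower in Wapal than in Smc3 depletion (-0.84 ± 0.09, limma adjusted p = 0.000207), with no overlap. Plat, tissue plasminogen activator, was dim, at 47.2 and 44.7 with Smc3 shRNA1, 28.7 and 31.7 with Smc3 shRNA2, against 21.0 and 25.0 in Empty Vector (0.70 ± 0.11, limma adjusted p = 0.00694). With Wapal shRNA1 Plat read 26.5 and 31.3 and with Wapal shRNA2 31.4 and 30.5, all above the control arrays. That difference, 0.38 ± 0.11, was not called. Urokinase (Plau) and plasminogen (Plg) were not called.

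Of the remaining partners, Capn2, a calpain subunit that cleaves membrane-bound proteins in repair, rose in Smc3 depletion (0.55 ± 0.10, limma adjusted p = 0.0117) and was called with Smc3 shRNA1 alone. It read 289 and 293 with Smc3 shRNA1, 149 and 165 with Smc3 shRNA2, against 138 and 153 in Empty Vector. The call in Smc3 depletion was lost without Empty Vector replicate 1, without Smc3 shRNA2 replicate 2 and with side as a covariate. S100a1, an S100 gene known from muscle, was dim and rose in Smc3 depletion (0.75 ± 0.15, limma adjusted p = 0.023), a call that was lost without any 1 array other than Empty Vector replicate 2. In Wapal depletion its difference was of like size, 0.71 ± 0.18, with all 4 arrays above the control arrays, but was not called (limma adjusted p = 0.0592), and Wapal depletion differed from Smc3 depletion by -0.05. Ahnak, a giant scaffold protein that binds annexin A2 and S100A10, fell in Wapal depletion (-0.46 ± 0.11, limma adjusted p = 0.0492), at 241 and 265 with Wapal shRNA1, 303 and 277 with Wapal shRNA2, against 340.2 and 408 in Empty Vector. That call was lost without any 1 of the 6 arrays. The S100A6 partners Cacybp and Sugt1 and the channel Kcnk3, which S100A10 brings to the membrane, were not called in either depletion. Sugt1 was, however, higher in Wapal than in Smc3 depletion (0.40 ± 0.07, limma adjusted p = 0.00317), with no overlap. In that comparison 2 of the 22 partners were called higher and 5 lower, where 22.5% of all genes were called.

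**Figure D4:**
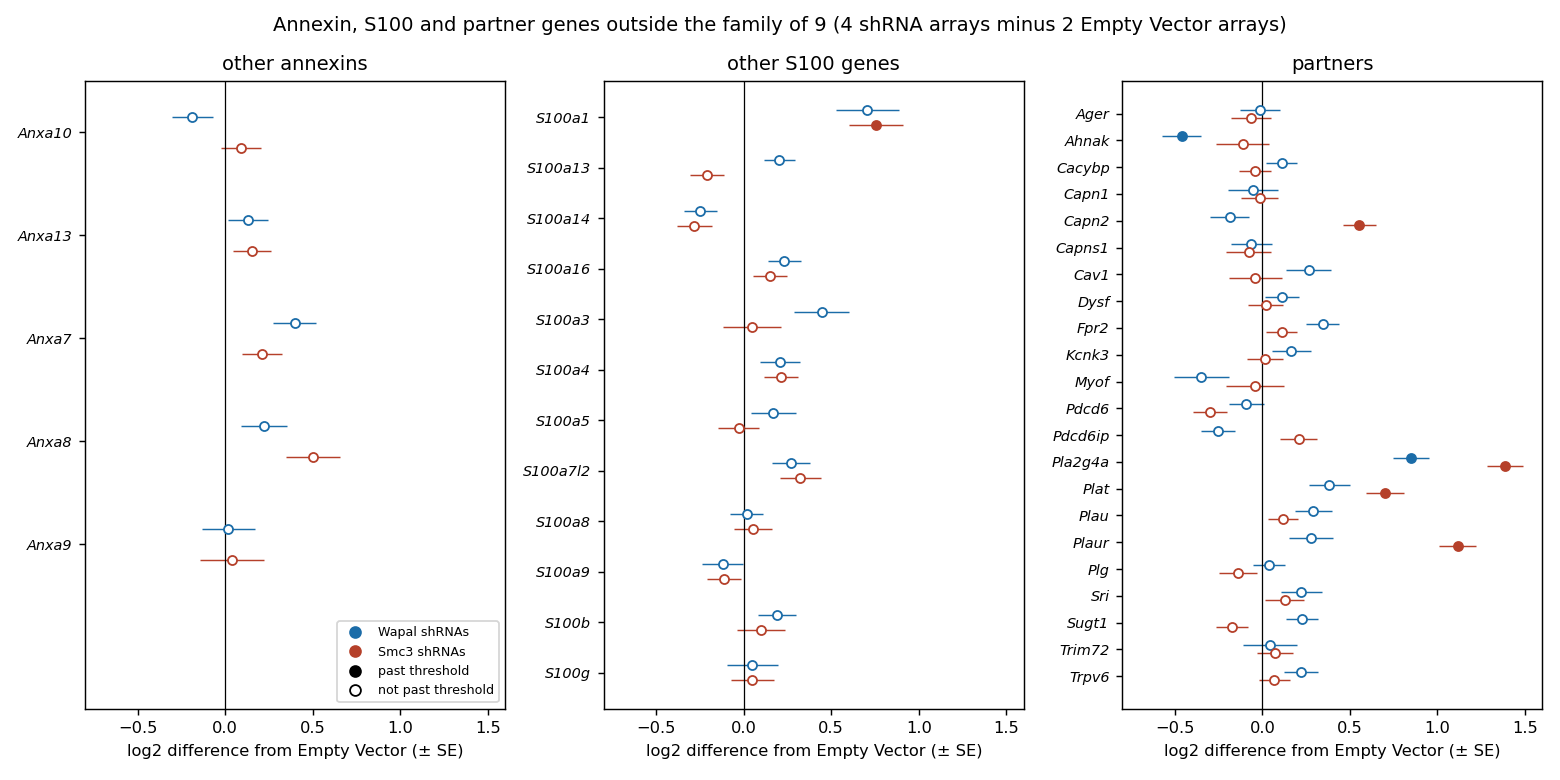
Log2 difference from Empty Vector (horizontal axis, with SE) of the other annexins, other S100 genes and partner genes in Wapal depletion and in Smc3 depletion, 4 arrays against 2; filled points passed the threshold over all probe sets. Pla2g4a is filled in both, Plaur, Plat, Capn2 and S100a1 in Smc3 depletion and Ahnak, the filled point left of 0, in Wapal depletion.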

How the data were processed

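Total RNA from infected ESCs was labelled with biotin and hybridised to 1 Affymetrix mouse genome array per sample. The authors made the deposited intensity values from the scans with RMA (background correction, quantile normalization and a summary per probe set), on a linear scale, with the version not given in the sources used here. RMA gives all arrays nearly the same distribution, so a shift of most genes could not be seen, and differences of dim probe sets are compressed. Arrays have no read depth, and precision is limited by how many there are.

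Of 45101 probe sets, 64 Affymetrix controls were left out, and 34945 carried 1 gene symbol, 932 several and 9160 none in the platform annotation. Every column of values matched 1 sample (0 unmapped). Log2 values were fitted with limma 3.58.1 in R 4.3.3 (lmFit and eBayes, 1 mean per group, two-sided, Benjamini-Hochberg over 45037 probe sets, threshold 0.05). Each depletion was fitted on the 6 arrays of its shRNAs and Empty Vector, and the depletions were compared in a fit of all 10 arrays. The steps were tested on simulated data. Named were all members, the other family and partner genes called in a depletion, the 5 genes most and the 5 least like Anxa2 (Pearson's r, mean log2 of at least 6) and the targeted genes. The members and lists were chosen with earlier results of these data known. The labels call replicates biological but do not say whether infections were separate, so the p-values cover the spread of these samples alone, which may be technical. Groups follow the sample labels. A supplementary table of the study exchanges the labels of 2 Wapal arrays (replicate 2 of shRNA1 and replicate 1 of shRNA2), and Wapl itself read 929 and 1005 with shRNA1 and 235 and 217 with shRNA2 under the labels used. Replicate numbers did not pair the samples: deviations of same-numbered arrays correlated at -0.16 to 0.06 over the pairs of groups. Alternatives were quantile normalization, an offset of 16, leaving out dim probe sets, a replicate block, trend and robust moderation, all 10 arrays in 1 model, the side of the array as a covariate, the methods' t-test and leaving out each array.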

Additional observations from a re-analysis of the deposited data

Results flagged for a closer look

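The values below differed between groups under the same fit, and since the genes were chosen with these arrays known, they describe the arrays. Anxa3 was lower in Wapal than in Smc3 depletion, with a log2 difference of -0.45. Anxa2 was lower with Wapal shRNA1 than with Wapal shRNA2, at -1.42. Smc3 shRNA1 was above Smc3 shRNA2 by 0.79 for Anxa1, 1.85 for Anxa2, 0.74 for Anxa3, 0.71 for Anxa4, 0.69 for Anxa5 and 0.55 for S100a6. These shRNA comparisons run along the split of the Empty Vector arrays, so the shRNA and the side of the array cannot be told apart.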

How the results depend on the processing

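All values here rest on 2 arrays a group and an unlabelled split of the arrays. The fit with side as a covariate could change only the SE of a depletion difference, because each depletion held equal numbers of arrays of both sides. The member genes called in Wapal depletion numbered 2, against 4 with dim probe sets left out, 4 with trend and robust moderation and 1 to 2 without 1 array (1 without Empty Vector replicate 1). In Smc3 depletion they numbered 5, against 2 with side as a covariate, 1 by the methods' t-test at an unadjusted p under 0.05 and 2 to 4 without 1 array (2 without Empty Vector replicate 1, 3 without any 1 Smc3 array). Between Wapal and Smc3 depletion the count was 1, against 2 with quantile normalization, 2 with the offset of 16, 3 with dim probe sets left out, 3 with trend and robust moderation, 0 by the methods' t-test at an unadjusted p under 0.05 and 1 to 3 without 1 array (3 without either Empty Vector array). Between the Wapal shRNAs it was 1, against 0 with quantile normalization, 0 with the offset of 16, 2 with trend and robust moderation, 2 by the methods' t-test at an unadjusted p under 0.05 and 0 to 1 without 1 array (0 without any 1 Wapal array). Between the Smc3 shRNAs it was 6, and 1 to 6 without 1 array (1 without Smc3 shRNA1 replicate 1, 2 without either Smc3 shRNA2 array). The other family and partner genes called in either depletion numbered 6, against 13 by the methods' t-test at an unadjusted p under 0.05 and 3 to 7 without 1 array (3 without Empty Vector replicate 1). After Benjamini-Hochberg the methods' t-test called 0 in every comparison, and with 2 to 4 arrays a group it has few degrees of freedom. Where 1 array was left in a group, it was assumed to vary like the other groups.

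With the replicate number as a block, the member genes called were 3 in Smc3 depletion and 2 between the depletions. The counts stayed at 2, 1 and 6 in the other comparisons of members. For the other family and partner genes the count was 5, against 6 in the main fit. The replicate numbers do not pair these samples.

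Of 812 repeats for single genes, 678 kept direction and side of the threshold, 92 lost the call, 32 gained one and 10 turned sign, all of uncalled values near 0. Anxa6 in Wapal depletion ranged between -0.31 and 0.19, with 0.19 without Empty Vector replicate 2, 0.01 without Wapal shRNA1 replicate 1 and 0.02 without Wapal shRNA2 replicate 1. Ahnak in Smc3 depletion ranged between -0.25 and 0.022, with 0.02 without Empty Vector replicate 2 and 0.022 without Smc3 shRNA2 replicate 2. Anxa2 in Wapal against Smc3 depletion ranged between -0.14 and 0.045, with 0.045 without Smc3 shRNA1 replicate 1 and 0.04 without Smc3 shRNA2 replicate 2. S100a6 in Wapal against Smc3 depletion ranged between -0.026 and 0.12, with -0.026 without Wapal shRNA2 replicate 2. S100a6 in Wapal shRNA1 against Wapal shRNA2 ranged between -0.10 and 0.20, with -0.03 without Wapal shRNA1 replicate 1 and -0.10 without Wapal shRNA2 replicate 1. The causes were not tested. Dim probe sets limit the values of most partner genes.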

Other observations

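The probe set that lists S100a11 together with the pseudogene S100a11-ps and Gm12854 read 947 and 855 with Wapal shRNA1, 1105 and 1153 with Wapal shRNA2, 1350.1 and 1139 with Smc3 shRNA1, 1084 and 1077 with Smc3 shRNA2, against 881 and 991 in Empty Vector. The 4 Smc3 arrays and the Wapal shRNA2 arrays were above both control arrays, and Wapal shRNA1 overlapped them. The log2 difference was 0.31 ± 0.11 in Smc3 depletion and 0.11 in Wapal depletion, and neither was called. The signal cannot be given to 1 of the 3 genes.

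Among the genes that were not called in either depletion as a whole, Anxa7 and Anxa8, singled out after their values were seen, were called with Smc3 shRNA1 against Empty Vector. In that comparison 11.6% of all genes were called. Neither gene was called with either Wapal shRNA. Anxa7, an annexin of secretory membranes, read 1788 and 1548 with Smc3 shRNA1, 982 and 981 with Smc3 shRNA2, against 1000.3 and 1221 in Empty Vector (0.59 ± 0.13 for Smc3 shRNA1, limma adjusted p = 0.0291). With Wapal shRNA1 it read 1326 and 1160, which overlapped the control. With Wapal shRNA2 it read 1585 and 1842, above both control arrays and overlapping Smc3 shRNA1. Anxa8 was dim, at 70.6 and 66.2 with Smc3 shRNA1, 44.2 and 32.6 with Smc3 shRNA2, against 31.4 and 41.3 in Empty Vector (0.93 ± 0.18 for Smc3 shRNA1, limma adjusted p = 0.0157).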
